A study of Mus musculus with 4 samples.

Results

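The xenobiotic metabolism genes were 42 genes listed by symbol. They comprised 12 cytochromes P450, 10 glutathione transferases, 14 other conjugation or oxidation enzymes and 6 receptors or exporters. A probe set that names a single gene was annotated to 41 of them, out of 18193 genes on the arrays, and Por, the reductase that passes electrons to the cytochromes P450, had no annotated probe set and was not analysed. C57BL/6 mice, germ-free (GF) or GF mice monocolonized with Lactobacillus NK318.1, were kept in gnotobiotic isolators. The labels give a dose of 100000000 bacteria and 2 weeks of colonization, whereas GF mice received none. Peyer's patch cells and intestinal epithelial cells of each group were hybridized to 1 Affymetrix array each, 4 arrays in all, and each array carried RNA pooled from several mice. Neither sex nor age was stated for the mice on each array.

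Animals clear foreign compounds from food and microbes in stages. Cytochromes P450, flavin monooxygenases and dehydrogenases first add or expose a reactive group, transferases then attach glutathione or sulfate, and exporters such as Abcg2 and Abcb1a pump the products out of the cell. The receptors Ahr, Nr1i2 (PXR) and Nr1i3 (CAR) bind such compounds and turn on many of these genes, and in the intestine the enzymes lie mainly in enterocytes, the absorptive cells that face the gut lumen.

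Whole-array facts set limits on what these signals can show. There were no replicates, so no difference was tested, and each ratio below compares a single array with another and carries no error. The median signal was 23.0 to 23.3 on the 4 arrays, and 59.1% to 61.0% of the probe sets lay above a floor of 15.5, the level under which signals were raised before a ratio was taken. The leukocyte markers summed to 24484 (GF) and 24966 (colonized) in the Peyer's patch, and the enterocyte markers to 44133 and 31598 in the epithelial cells, so each tissue carried the markers of its label. The stomach markers, however, summed to 525 (GF) and 36400 (colonized) in epithelial cells, and the pancreatic acinar markers to 1476 and 11976. Ileal enterocyte markers summed to 5251 and 1252 in the same arrays and leukocyte markers to 5993 and 748. Xist, which is transcribed in female cells, had signals of 21.7 and 46.7 in the GF Peyer's patch and epithelial arrays against 4586 and 4889 in the colonized ones, and the Y-linked Eif2s3y was no less than 19.3-fold and 9.46-fold lower there. Sex therefore cannot be told apart from colonization in either tissue. For Actb the signal at the 3′ end over that at the 5′ end, which grows as RNA breaks, went from 1.60 to 1.74 between the GF and the colonized Peyer's patch array and from 2.73 to 4.10 between the epithelial arrays. In pooled bulk RNA, fewer cells of a type and less RNA per cell cannot be told apart.

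The xenobiotic metabolism genes were mostly epithelial. Of 39 members measured in both the GF and the colonized pair, 35 (89.7%) had at least 2-fold more signal in epithelial cells than in Peyer's patch in both pairs, where 14.3% of all measured genes did so. A single member, Ephx1, lay at least 2-fold higher in the Peyer's patch in both pairs, where 14.7% of all measured genes did. The median log2 ratio of epithelial cells over Peyer's patch was 3.48 in GF and 3.80 in colonized mice for the members. For all genes it was 0.04 and 0.11. Members under the floor on both Peyer's patch arrays entered only through the epithelial arrays, and their ratios are lower bounds. The GF median of 3.48 is itself such a bound, that of Nqo1. The colonized median of 3.80 lies between the ratio of Fmo5, which was measured, and that of Cyp2j6, a bound. The pairs came from different mice that also differed in colonization, so they were not replicates.

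**Figure D1:**
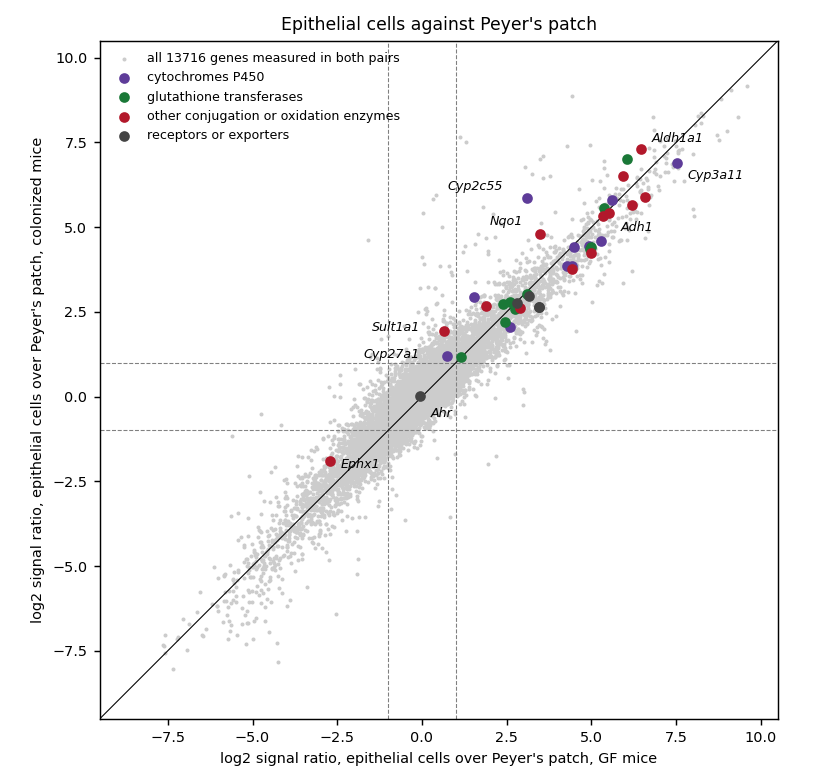
Each point is a gene, placed by its log2 signal ratio of epithelial cells over Peyer's patch in GF mice (horizontal axis) and in colonized mice (vertical axis); dashed lines mark 2-fold, the diagonal marks equal ratios, grey points are the 13716 genes measured in both pairs and coloured points are the 39 members among them. Members lie mostly at the upper right, with Ahr near 0 and Ephx1 alone at the lower left.

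Many members were too low to be measured in Peyer's patch, the cytochromes P450 above all. Of 12 cytochromes, 9 were under the floor on both Peyer's patch arrays, as were 2 glutathione transferases, 5 other enzymes and 2 receptors, 18 of 41 members in all. Of all 18193 genes, 5457 were under the floor on both Peyer's patch arrays and 4319 on both epithelial ones. On the epithelial arrays Ahrr, the repressor of the aryl hydrocarbon receptor, was the single member under the floor on both, and 39 members lay above it on both. The signal of Cyp3a11, the main intestinal drug-oxidizing enzyme of the mouse, was 6.01 and 5.81 on the Peyer's patch arrays of GF and colonized mice and 2849 and 1841 on the epithelial ones. It was thus at least 184-fold higher in GF and 119-fold higher in colonized epithelial cells. Every glutathione transferase listed, 10 of 10, passed 2-fold toward the epithelial cells in both pairs, as did 14.3% of all measured genes. Of these transferases, Gsta3 and Gsta4 were under the floor in Peyer's patch and entered only through the epithelial arrays. The ratios ran from 2.24-fold in each pair for Gstp1, the broadly expressed form, to no less than 65.9-fold and 129-fold for Gsta4. Gsta4 conjugates products of lipid peroxidation.

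The exceptions differed in kind. Ephx1, the microsomal epoxide hydrolase, had signals of 352.8 (GF) and 326.4 (colonized) in Peyer's patch against 54.0 and 87.5 in epithelial cells. Its Peyer's patch signal was 6.54-fold higher in GF and 3.73-fold higher in colonized mice, opposite to Ephx2, the soluble epoxide hydrolase, which was 40.3-fold and 39.9-fold higher in epithelial cells. The signals of Ahr, the receptor itself, were 130.8 and 100.8 in Peyer's patch against 126.4 and 102.7 in epithelial cells, a ratio of 0.966 in GF and 1.02 in colonized mice. At this probe set the tissues were alike, but at the other one Ahr had 25.5 and 20.7 in Peyer's patch against 37.1 and 50.4 in epithelial cells, log2 ratios of epithelial cells over Peyer's patch of 0.54 in GF and 1.29 in colonized mice. The tissue difference of Ahr thus depended on the probe set. Cyp27a1, a mitochondrial sterol hydroxylase, and Sult1a1, a phenol sulfotransferase, passed 2-fold toward the epithelial cells in the colonized pair alone, at 2.28-fold and 3.86-fold against 1.66-fold and 1.56-fold in the GF pair.

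**Figure D2:**
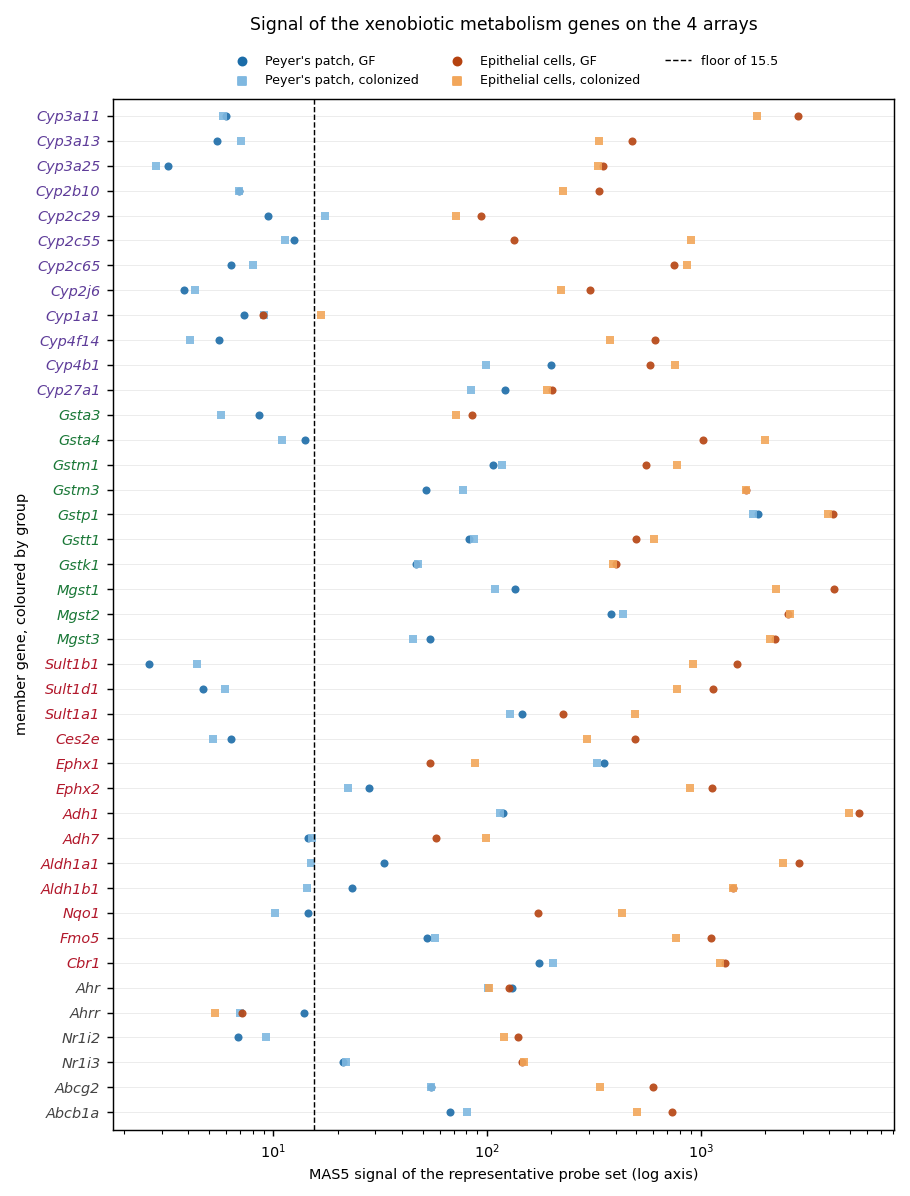
Signals of the 41 member genes with a probe set are shown on a logarithmic axis, 1 symbol for each of the 4 arrays, ordered by the groups of the rule, with the floor of 15.5 as a line. Most Peyer's patch symbols of the cytochromes P450 fall under the floor, while the epithelial symbols reach 5509 for Adh1.

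In epithelial cells, 3 of 40 measured members were at least 2-fold higher in the colonized array, namely Cyp2c55, Nqo1 and Sult1a1, and 0 were lower by that much. Among all measured genes 2.63% were higher and 1.54% lower by this limit. Most members lay within 2-fold, 37 of 40. Their median log2 ratio of colonized over GF was −0.08, with 14 above 0 and 26 below, beside a median of 0.02 over all measured genes, of which the central 95% spanned −0.86 to 1.03. The median was −0.23 for the cytochromes P450, −0.02 for the glutathione transferases, −0.15 for the other enzymes and −0.30 for the receptors or exporters. This last value, over 5 measured genes, is the ratio of Ahr at the probe set used for the counts. The other probe set of Ahr gave 0.44.

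The highest ratio belonged to Cyp2c55, an arachidonic acid-oxidizing cytochrome P450 of the gut. In epithelial cells its signal was 133.4 (GF) and 906.2 (colonized), a 6.79-fold difference with a log2 ratio of 2.76, and 12.5 and 11.4 in the Peyer's patch, under the floor on both arrays. The adjacent Cyp2c65, with no protein-coding gene between them in the RefSeq annotation of GRCm38.p6, had 754.2 and 860.2, a log2 ratio of 0.19. Cyp2c29, another member of the same cluster on chromosome 19, with 2 protein-coding genes between it and Cyp2c55, had 93.9 and 71.6 (log2 ratio −0.39). Neighbouring genes of the family thus differed in ratio, from below 0 to past 2-fold. Each of them was read by a single probe set, and that of Cyp2c65 has the ending _s_at, so it may also read related genes.

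The promoter windows of these genes are printed because their signals differed among close neighbours, together with those of the other members that passed 2-fold in epithelial cells. Each window runs 5′ to 3′ on the strand of its gene from 250 bases before to 50 bases after the start, as RefSeq places it on GRCm38.p6. Capitals mark TATAAA on the strand of the gene and, in Cyp2c65, TGACNNNGC on the other strand.
Cyp2c55 (chr19:39006769-39007068, plus strand): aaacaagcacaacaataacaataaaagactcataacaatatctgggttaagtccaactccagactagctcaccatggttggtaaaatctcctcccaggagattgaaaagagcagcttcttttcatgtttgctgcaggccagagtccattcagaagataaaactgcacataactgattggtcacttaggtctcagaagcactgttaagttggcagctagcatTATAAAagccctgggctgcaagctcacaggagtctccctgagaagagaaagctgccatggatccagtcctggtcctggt
Cyp2c65 (chr19:39060756-39061055, plus strand): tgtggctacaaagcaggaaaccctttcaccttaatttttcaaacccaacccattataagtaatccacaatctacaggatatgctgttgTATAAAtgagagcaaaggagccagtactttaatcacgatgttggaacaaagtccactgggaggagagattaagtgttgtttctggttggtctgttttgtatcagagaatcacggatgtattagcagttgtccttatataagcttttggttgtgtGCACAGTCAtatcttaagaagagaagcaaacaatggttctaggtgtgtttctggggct
Cyp2c29 (chr19:39286835-39287134, plus strand): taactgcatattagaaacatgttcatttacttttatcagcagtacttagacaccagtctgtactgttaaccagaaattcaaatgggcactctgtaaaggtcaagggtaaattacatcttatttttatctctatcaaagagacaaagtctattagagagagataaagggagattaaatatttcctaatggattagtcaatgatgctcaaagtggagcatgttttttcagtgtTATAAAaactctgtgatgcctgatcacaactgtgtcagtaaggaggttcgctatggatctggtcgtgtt
Nqo1 (chr8:107403156-107403455, minus strand): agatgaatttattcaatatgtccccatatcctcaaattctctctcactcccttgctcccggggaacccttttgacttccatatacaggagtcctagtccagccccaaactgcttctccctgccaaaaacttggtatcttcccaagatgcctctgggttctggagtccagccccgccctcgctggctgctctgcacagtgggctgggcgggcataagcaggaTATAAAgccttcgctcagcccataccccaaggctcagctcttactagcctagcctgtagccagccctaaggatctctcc
Sult1a1 (chr7:126676369-126676668, minus strand): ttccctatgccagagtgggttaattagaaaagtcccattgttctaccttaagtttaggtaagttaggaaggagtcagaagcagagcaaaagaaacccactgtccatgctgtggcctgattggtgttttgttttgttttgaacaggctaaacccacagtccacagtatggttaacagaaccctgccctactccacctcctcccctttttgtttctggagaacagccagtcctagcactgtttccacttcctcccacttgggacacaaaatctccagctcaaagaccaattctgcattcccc

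In a global alignment 174 of the 300 bases of the Cyp2c55 window matched Cyp2c65 and 178 matched Cyp2c29, against 143 for the unrelated Nqo1. Over all unrelated pairs of the printed windows the matches ran from 134, for Cyp2c65 with Nqo1, to 158, for Cyp2c65 with Sult1a1. TATAAA lay at position −29 in Cyp2c55 and in Nqo1, at −19 in Cyp2c29 and at −162 in Cyp2c65, counted from the start, and Sult1a1 had none. It was sought on the strand of the gene alone, after the sequences had been seen, and was present in 22.4% of the 49 member windows and 8.32% of all 32851 windows. These letters are a description of the window and not a site. On either strand, GCGTG, the core of the xenobiotic response element that Ahr binds, was in 28.6% of member windows and 32.4% of all. The antioxidant response element core TGACNNNGC was in 12.2% and 12.4%, and AGTTCA, a nuclear receptor half-site, in 14.3% and 14%. GCGTG and AGTTCA were in none of the printed windows, and TGACNNNGC was in Cyp2c65 alone. Bases outside the windows were not searched, so absence here says nothing of sites further from the start. A window was listed for 39 of the 42 members.

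Nqo1, which reduces quinones, read 173.0 on the GF and 430.1 on the colonized epithelial array. The colonized signal was 2.49-fold higher, a log2 ratio of 1.31, and both Peyer's patch arrays were under the floor at 14.6 and 10.2. For Sult1a1 the signals were 227.5 and 494.0, which is 2.17-fold higher with a log2 ratio of 1.12, and the Peyer's patch had 145.7 and 128.0. Sult1b1 and Sult1d1, which transfer sulfate to thyroid hormone, phenols and catecholamines and are adjacent on chromosome 5, went the other way within 2-fold, at −0.69 and −0.55. Sulfotransferases of the list thus lay on both sides of 0.

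Just inside the limit, Gsta4 had 1022 and 2007, a 1.96-fold difference with a log2 ratio of 0.97. Adh7, an alcohol dehydrogenase known from the stomach lining that also oxidizes retinol, had 57.9 and 99.3, with log2 ratios of 0.78 and 0.80 at its 2 probe sets, the second a bound. Ephx1 followed at 0.70. Its neighbour in function Ephx2 lay at −0.35, and Adh1, which is adjacent to Adh7 on chromosome 3, at −0.15. Gstm1, the main liver mu-class transferase, gave 0.03 to 0.55 at 4 probe sets, and Cyp4b1, which oxidizes short fatty acids and aromatic amines, gave 0.39, with 578.0 and 756.1. Gstt1, the theta-class transferase, was at 0.28.

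**Figure D3:**
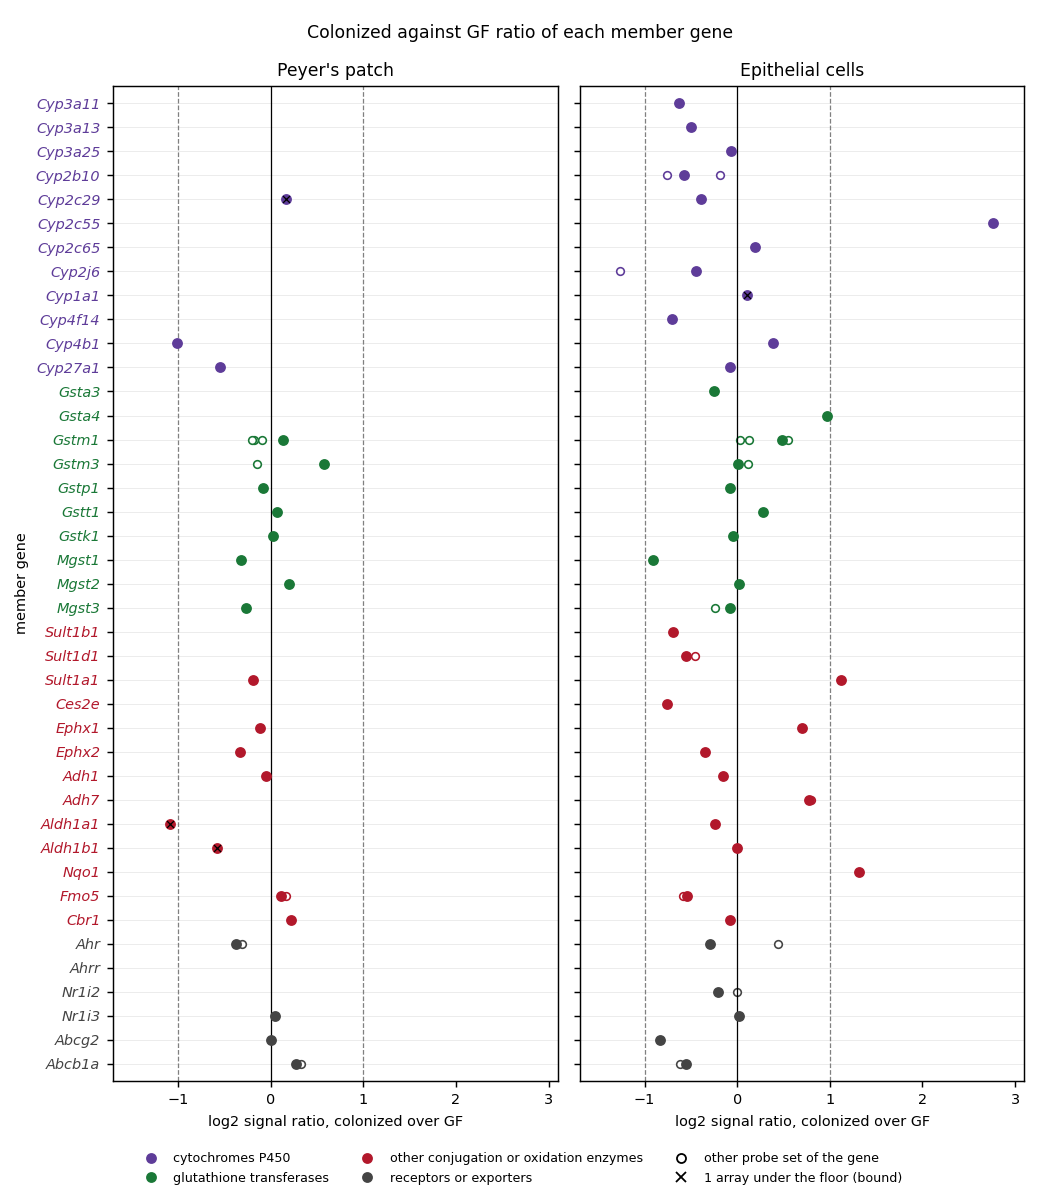
The log2 signal ratio of colonized over GF is drawn for each member in Peyer's patch and in epithelial cells, with dashed lines at 2-fold, filled symbols for the probe set used in the counts, open symbols for other probe sets of the gene and a cross where 1 of the arrays was under the floor. In epithelial cells Cyp2c55 stands furthest right at 2.76 and Mgst1 is the lowest filled symbol at −0.91, while in Peyer's patch Aldh1a1 and Cyp4b1 are the members past 2-fold.

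On the lower side of the epithelial comparison no member passed 2-fold, and the lowest ratios were spread over all groups. Mgst1, a microsomal transferase that protects membranes from peroxides, had 4213 in GF and 2243 in colonized cells, 1.88-fold lower, with a log2 ratio of −0.91. Abcg2, the exporter that returns dietary compounds to the lumen, had 601.2 and 337.5, 1.78-fold lower, and a log2 ratio of −0.83. Ces2e, an intestinal carboxylesterase, was at −0.75. Cyp4f14, which hydroxylates leukotriene B4 and vitamin side chains, was at −0.70 and Cyp3a11 at −0.63. Cyp2b10 lay at −0.57 with −0.76 to −0.19 over 3 probe sets, and Cyp3a13 at −0.50. Cyp3a25, which is adjacent to Cyp3a11, had −0.07. Fmo5, a flavin-containing oxygenase of the gut, had −0.54. Cyp2j6, which epoxidizes fatty acids, had −0.44 at the probe set used for the counts and −1.27 at the other, where the signal was 171.9 in GF and 71.5 in colonized cells.

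The remaining enzymes lay near 0 in epithelial cells. Ratios of Aldh1a1 and Aldh1b1, which oxidize aldehydes and in the first case retinal, were −0.24 (signals of 2881 and 2438) and 0.00, and Gsta3, an alpha-class transferase, had −0.25. The large signals of Gstp1, Gstm3, Mgst2, Mgst3 and Gstk1 gave ratios from −0.08 to 0.02, as did Cbr1, a carbonyl reductase, at −0.08. Cyp27a1 also had −0.08. Cyp1a1, the most Ahr-responsive cytochrome in textbooks, had 7.32 and 9.05 in Peyer's patch with 8.94 and 16.7 in epithelial cells, under the floor on 3 of 4 arrays. Its ratio in epithelial cells was at least 1.08-fold higher, and the level lay too near the floor for more. Ahrr, another textbook Ahr target, had 13.9, 7.0, 7.11 and 5.33 in GF and colonized Peyer's patch and GF and colonized epithelial cells, all under the floor.

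The receptors and exporters in epithelial cells showed no member past 2-fold. Ahr gave log2 ratios of −0.30 at one probe set and 0.44 at another, and its direction differed between them. Nr1i2 had 139.7 and 120.6 in epithelial cells, a ratio of −0.21, and −0.00 at the other probe set, while its Peyer's patch signals of 6.80 and 9.29 were under the floor. Signals of Nr1i3 were 146.5 and 148.3 in epithelial cells and 21.1 and 21.8 in Peyer's patch, ratios of 0.02 and 0.05. The nuclear receptors Nr1i2 and Nr1i3 thus lay close to 0 in epithelial cells. Abcb1a, the drug-exporting P-glycoprotein, had 736.6 and 501.5, a ratio of −0.55 with −0.61 at the other probe set. Its Peyer's patch signals were 66.9 and 81.0, a ratio of 0.28, and those of Abcg2 were 54.5 and 54.4. Both exporters thus had lower signals on the colonized epithelial array within 2-fold, beside Peyer's patch ratios of 0.28 and −0.00, and the difference between tissues was not tested.

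Cell type markers moved in the same epithelial arrays. Of 12 enterocyte markers, 11 were below 0 and 2 passed 2-fold downward. Their median log2 ratio was −0.55, and Anpep, a brush border peptidase, had 1108 in GF and 472 in colonized cells. Of 5 ileal enterocyte markers, 4 were at least 2-fold lower (median −1.40). The 6 markers of the proximal small intestine had a median of 0.03, with 3 above 0 and 3 below. Those 6 ran from Lct at −0.53 to Slc40a1 at 1.20. Stomach markers were at least 2-fold higher in 11 of 13, with a median of 5.55, although Atp4a and Atp4b, which define acid-secreting cells, had ratios of 0.37 and 0.09. All 9 pancreatic acinar markers were at least 2-fold higher (median 3.33). The colon marker Car1 had 332 and 7276, with a ratio of 4.45, but the median of 4 colon markers was −0.15. Medians were 1.12 for fibroblast, 0.97 for smooth muscle, 0.54 for goblet and 0.10 for endothelial markers. Squamous epithelium markers had a median of −0.08, macrophage markers −0.20 and leukocyte markers −2.03. Of the hepatocyte markers, Ahsg, Fgb and Fga were under the floor on all 4 arrays. The 5 measured in epithelial cells had a median of 0.25, with 4 above 0 and 1 below. The part of these other cells and stretches of gut in the ratios of Cyp2c55, Nqo1, Sult1a1, Gsta4 and the members below 0 was not tested.

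**Figure D4:**
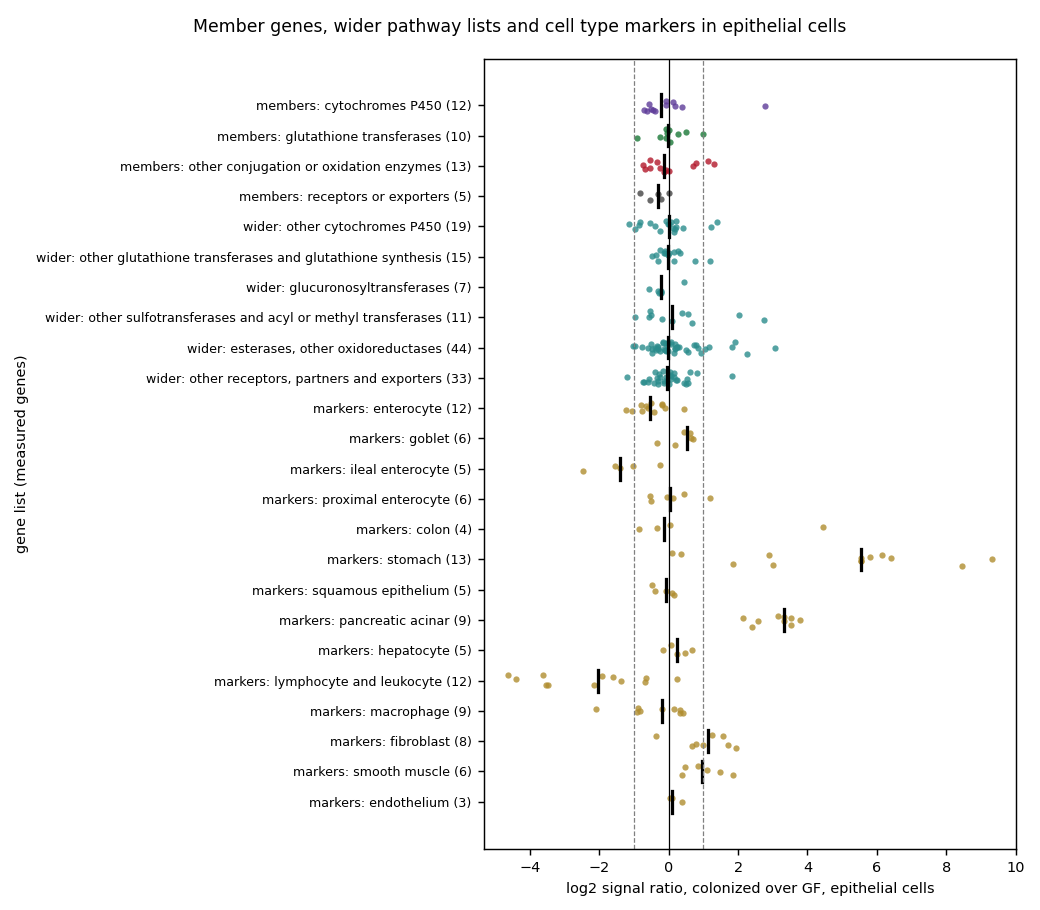
Each point is the log2 signal ratio of colonized over GF in epithelial cells for a measured gene, in rows for the member groups, the wider pathway lists and the cell type markers, with the number measured in brackets, a black bar at each median and dashed lines at 2-fold. Member medians lie between −0.30 and −0.02, while the stomach markers have a median of 5.55 and the leukocyte markers of −2.03.

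In Peyer's patch, 23 members were measured. At least 2-fold higher signal on the colonized array was found for 0 of 23, where 0.149% of all measured genes were, and 2 were at least 2-fold lower, where 0.573% of all measured genes were. The median log2 ratio was −0.04 with 10 above 0 and 13 below, beside −0.03 for all measured genes and a central 95% from −0.60 to 0.41. Medians were −0.54 for the 3 measured cytochromes P450 (−0.77 to −0.02 with other floors or with probe sets averaged), 0.05 for 8 glutathione transferases, −0.15 for 8 other enzymes and 0.02 for 4 receptors or exporters. Aldh1a1, which makes retinoic acid from retinal, had 32.9 in GF and 14.9 in colonized Peyer's patch. The second value was under the floor, so the colonized signal was at least 2.12-fold lower. Cyp4b1 had 198.6 and 98.9, 2.01-fold lower with a log2 ratio of −1.01, and sat close to the limit.

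The other Peyer's patch ratios stayed within 2-fold. Aldh1b1 had 23.2 and 14.4 (log2 ratio −0.58, a bound because the second value was under the floor). Cyp27a1 had 121.9 and 83.7, a ratio of −0.54, and Ahr −0.38 and −0.30 at its 2 probe sets. These were the lower ones, with Ephx2 (−0.33), Mgst1 (−0.32), Mgst3 (−0.27), Sult1a1 (−0.19), Ephx1 (−0.11), Gstp1 (−0.08) and Adh1 (−0.04). Gstm3 had 51.8 and 77.4, a ratio of 0.58, and −0.14 at its other probe set, so its direction was not the same at both. That other probe set had 17.1 and 14.6, so −0.14 is a bound from a value under the floor. Probe sets with the ending _s_at or _x_at, which may share probes with related genes, represent Gstm3 and Gstm1, as they do Cyp2c65, Cyp2b10 and Fmo5, and Gstm1 gave −0.21 to 0.13 over 4 probe sets. Above 0 were also Cbr1 (0.22), Mgst2 (0.20), Cyp2c29 (0.16, from a value under the floor), Gstm1 (0.13), Fmo5 (0.11), Gstt1 (0.07) and Gstk1 (0.03).

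Marker signals of other cells were read on the same arrays. Summed enterocyte marker signal was 251 in GF and 225 in colonized Peyer's patch, with a median log2 ratio of −0.15 over 7 measured markers. All 8 fibroblast markers were below 0 (median −0.34), as were all 10 macrophage markers (median −0.48). Their part in the ratios of Aldh1a1 and Cyp4b1 was not tested.

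All probe sets of the members were counted too. Of 59, 30 were measured in Peyer's patch, with 0 at least 2-fold higher and 2 lower, where 0.131% and 0.409% of all measured probe sets were. In epithelial cells 55 were measured, 3 were higher and 1 was lower, that of Cyp2j6, against 2.57% and 1.35% of all. Among members with several measured probe sets, 3 of 5 in Peyer's patch and 10 of 11 in epithelial cells had the same sign at each.

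A wider list of the pathway, chosen from gene families and holding no member, was described for comparison. In Peyer's patch 88 of its genes were measured, 0 at least 2-fold higher and 1 lower, beside 0.149% and 0.573% of all measured genes. The lower one was Abcc3, an exporter of conjugates, at −1.01, which had 1.81 in epithelial cells. In epithelial cells 12 of 129 were at least 2-fold higher and 3 lower, with a median of −0.03, 59 above 0 and 70 below. Among all measured genes 2.63% were higher and 1.54% lower there. Cbr3, a carbonyl reductase, had 54.7 in GF and 457.1 in colonized cells, 8.36-fold higher, and stood above every member. Other high ratios were those of Sult1c2, a sulfotransferase, with 78.9 and 527.0 (log2 ratio 2.74), and Fmo2, a flavin monooxygenase, with 67.0 and 321.8 (2.26). Inmt, an indole N-methyltransferase, had 161.7 and 659.3 (2.03). Aldh3a1, an aldehyde dehydrogenase, had 3.94 and 58.0, at least 3.74-fold higher, and since its GF signal was under the floor it cannot be ranked among these. The lower ones were Slc15a1, the peptide transporter, with 197.0 and 86.2 (−1.19), Cyp2c38 with 44.5 and 20.1 (−1.15), and Ces1c, a carboxylesterase, with 32.5 and 15.9 (−1.04). Cyp2c38 lay below 0 while Cyp2c55 lay above it, so genes of this family had ratios past 2-fold in both directions.

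By family, the glucuronosyltransferases, which attach glucuronic acid, had 0 of 7 past 2-fold and a median of −0.23 in epithelial cells. The shares of all measured genes beside these family counts are 2.63% higher and 1.54% lower. The other cytochromes P450 had 2 of 19 higher and 1 lower with a median of −0.00. The other glutathione transferases and glutathione synthesis genes had 1 of 15 higher, Gstm2, with 117.8 and 266.1 (log2 ratio 1.18), and a median of −0.01. The sulfo-, acyl- and methyltransferases had 2 of 11 higher and a median of 0.09, and the esterases and other oxidoreductases 6 of 44 higher and 1 lower. Other receptors, partners and exporters had 1 of 33 in each direction and a median of −0.04. The stomach and acinar marker ratios given above lay on the same arrays, and their part in these ratios was not tested either.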

How the data were processed

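RNA of 4 groups was measured on 1 Affymetrix mouse 3′ expression array each. The authors deposited MAS5 intensity values on a linear scale, 1 per probe set, the tool being named in the submitters' processing notes and its version not given in the sources used here. In its methods the study also names R and limma with a 2-fold limit and an adjusted p-value. With 1 array per group no p-value or spread exists, so the 2-fold limit was used alone. The number of arrays limits the precision.

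No further scaling was applied. Of 45037 probe sets, 9160 had no gene and 932 named several genes in the annotation table and were left out of the gene values. They stayed in the floor, the median signals and the shares of all measured probe sets. A further 64 controls were left out of all of these. For each of 18193 genes the probe set of highest mean log2 intensity over the arrays was taken. The 40th percentile of intensity was taken on each array and its median over arrays (15.5) set as the floor. Intensities under the floor were raised to it, and genes above it on at least 1 array of a tissue were treated as measured there. A fold against a raised value is a lower bound. Ratios are log2 of colonized over GF.

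The members, the wider list, the markers and the rules were chosen with earlier results of these data known. Values on all arrays were printed for members at least 2-fold apart and for receptors and exporters, the other members by ratio, and up to the 4 highest and 4 lowest past 2-fold of the wider list. Further values, such as those of Aldh3a1 and Gstm2, were chosen after being seen. Promoter windows came from RefSeq on GRCm38.p6, which was also used for gene order, and were aligned globally with Biopython 1.88.

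Other settings tried were quantile normalization, median centring, floors at the 25th and 60th percentile or none, the mean over probe sets, leaving out less specific probe sets, and limits of 1.5-fold and 4-fold. The ratio to enterocyte markers was added after seeing the data. Scripts were first tested on simulated data, with pandas 2.3.3, numpy 2.4.6, matplotlib 3.10.9 and scipy 1.17.1 under Python 3.11.15.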

Additional observations from a re-analysis of the deposited data

Results flagged for a closer look

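Cyp4b1 and Sult1a1 passed 2-fold in one tissue and lay on the other side of 0 in the other. For Cyp4b1 the log2 ratio of colonized over GF was −1.01 in Peyer's patch and 0.39 in epithelial cells, and for Sult1a1 it was −0.19 in Peyer's patch and 1.12 in epithelial cells. With 1 array per group this difference between tissues was not tested.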

How the results depend on the processing

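No paired analysis was possible because a group held a single array. Over 71 alternatives of the counts and medians, 61 stayed close and 10 moved. With quantile normalization 1 member (Aldh1a1) was at least 2-fold lower in Peyer's patch, where Cyp4b1 had −0.97, and 1 (Mgst1, −1.10) in epithelial cells. A floor at the 60th percentile also left 1 lower in Peyer's patch (Cyp4b1). At 1.5-fold, 6 of 40 members were higher and 6 lower in epithelial cells, where 9.31% and 6.80% of all genes were. At 4-fold, 1 was higher there (0.469% of all genes), 0 were lower in Peyer's patch (0.0628%) and 0 were higher in Peyer's patch than in epithelial cells in both pairs (6.21%). Relative to the enterocyte marker median, a scale added after seeing the data that raises every epithelial ratio by 0.55, 7 of 40 were higher, where 14% of all genes were, and the members' median was 0.47. The members' median in Peyer's patch was 0.00 with quantile normalization. No member past 2-fold changed sign. Within 2-fold, the sign changed in 13 of 423 values of single members, over 9 members, such as Gstm3 (−0.14) and Gstm1 (−0.09) in Peyer's patch with specific probe sets alone and Ahr (0.07) in epithelial cells with probe sets averaged, and in 17 of 40 on the enterocyte scale. Of 60 group medians, 12 moved by at least 0.1, among them that of the cytochromes P450 in Peyer's patch. Of 463 values for single members, 457 kept their side of the limit. The cause was not tested. Sult1a1 rests on a probe set that may read several transcripts, and without such probe sets 2 members were higher in epithelial cells. Ratios near the floor are imprecise.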

Other observations

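Values of the glutathione genes outside the members in Peyer's patch were chosen after being seen. Of 13 measured other glutathione transferases and glutathione synthesis genes, 13 had a log2 ratio of colonized over GF below 0, with a median of −0.29 beside −0.03 for all measured genes, and 0 were at least 2-fold lower. Among all measured genes 7291 of 12736 were below 0, and of the 8 measured glutathione transferases among the members 3 were, with a median of 0.05. That count depended on the probe set. Gstm1 and Gstm3 were above 0 at the probe set used for the counts and below 0 at every other one, at −0.21 to −0.09 and −0.14. The 13 genes outside the members ran from Gstt3, with signals of 26.7 in GF and 17.9 in colonized mice, to Gstm4, with 34.0 and 32.5. The 10 macrophage markers were also all below 0 in these arrays, with a median of −0.48, and their part in the glutathione genes was not tested. In epithelial cells the same list had 6 genes above 0, Gstm2 at least 2-fold higher among them, and 9 below, with a median of −0.01.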
